A study of Rattus norvegicus with 58 samples.

Results

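The genes described here are cell cycle and mitosis genes: the enzymes and helicase subunits that copy DNA, the cyclins and kinases that start mitosis, and the spindle, kinetochore and cytokinesis proteins that divide the cell. The list names 56 genes, and its members were the probe sets whose single gene symbol is on it. Of the 56, 50 had such a probe set, 66 probe sets in all, out of 14217 genes and 31099 probe sets on the array. Nek2, Ndc80, Kif4a and Tpx2 had none, and Anln and Rrm2 were named only together with another gene, on 3 probe sets. Members were sorted by role into 6 groups: replication (11 of 12 listed genes with a probe set), cyclins and kinases (11 of 12), spindle checkpoint and ubiquitin steps (7 of 7), kinetochore (8 of 9), spindle and chromosome motion (8 of 10), and midzone and cytokinesis (5 of 6).

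Male Harlan Sprague-Dawley rats received 4-methylcyclohexanemethanol (MCHM), an alicyclic alcohol, by gavage at 0.1, 1, 10, 100, 300 or 500 mg/kg, with a time of 5 days on the labels, and controls are labelled 0 mg/kg by the same route, with no vehicle named. Liver and kidney were each profiled on 4 arrays per dose and 5 control arrays, 29 arrays per organ and 58 in all, with 1 log2 value per probe set and array. The labels call the arrays biological replicates and give neither the age of the rats nor a batch. Because the RNA comes from tissue of mixed cells, fewer dividing cells and less message per dividing cell cannot be told apart.

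A dividing cell copies its DNA in S phase and separates the copies in mitosis. Genes for replication are switched on ahead of S phase mainly by E2F factors. Genes for mitosis come on later, through the DREAM and MuvB complexes, which recognise a cell cycle homology region (CHR), and through NF-Y, which binds CCAAT boxes, together with B-MYB and FOXM1. In an adult rat liver few hepatocytes divide at any time, and resident macrophages and endothelial cells also turn over. In the adult kidney tubule cells also divide at a low rate.

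The promoters below are shown because their genes carry the main differences in liver or kidney, and Mcm5 is added as an example of a replication gene. Each runs from 250 bases before to 50 bases after the gene's start in RefSeq (assembly GRCr8), 5′ to 3′ on the gene's own strand, and the RefSeq table held 47 of the 56 listed genes. Capitals mark matches on either strand to a CHR spelled TTTGAA, or in its variant form TTCGAA, to the plain CCAAT box, or to the E2F words TTTCCCGC, TTTGGCGC, TTTCGCGC and TTTGCCGC, overlapping matches included. Nusap1 lies at chr3:127057045-127057344 (plus strand), Ube2t at chr13:48954916-48955215 (plus strand), Cdk1 at chr20:19265043-19265342 (plus strand), Ect2 at chr2:111966577-111966876 (minus strand), Ccnb2 at chr8:79981609-79981908 (minus strand) and Mcm5 at chr19:13488563-13488862 (plus strand).
Nusap1: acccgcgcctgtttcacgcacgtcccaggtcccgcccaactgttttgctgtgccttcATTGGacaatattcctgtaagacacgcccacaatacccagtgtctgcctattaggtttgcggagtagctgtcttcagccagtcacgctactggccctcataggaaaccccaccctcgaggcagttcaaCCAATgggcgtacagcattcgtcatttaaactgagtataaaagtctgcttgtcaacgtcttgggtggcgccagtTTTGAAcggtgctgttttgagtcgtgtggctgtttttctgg
Ube2t: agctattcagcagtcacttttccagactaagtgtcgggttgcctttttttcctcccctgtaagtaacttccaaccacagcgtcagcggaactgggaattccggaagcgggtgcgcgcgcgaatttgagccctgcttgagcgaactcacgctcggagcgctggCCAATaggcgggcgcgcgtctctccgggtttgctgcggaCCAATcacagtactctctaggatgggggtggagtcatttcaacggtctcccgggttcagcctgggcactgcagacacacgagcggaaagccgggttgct
Cdk1: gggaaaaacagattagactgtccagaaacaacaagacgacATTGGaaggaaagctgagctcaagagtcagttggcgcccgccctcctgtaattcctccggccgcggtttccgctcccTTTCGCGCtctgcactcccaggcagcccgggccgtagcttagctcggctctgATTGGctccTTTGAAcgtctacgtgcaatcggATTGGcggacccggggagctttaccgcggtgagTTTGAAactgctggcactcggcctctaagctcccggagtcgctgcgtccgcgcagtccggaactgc
Ect2: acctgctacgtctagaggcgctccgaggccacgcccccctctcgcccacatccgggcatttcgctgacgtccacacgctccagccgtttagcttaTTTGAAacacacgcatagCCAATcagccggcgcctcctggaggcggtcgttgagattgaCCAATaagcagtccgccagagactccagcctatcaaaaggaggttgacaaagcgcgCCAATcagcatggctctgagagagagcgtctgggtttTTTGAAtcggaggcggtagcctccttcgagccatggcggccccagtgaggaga
Ccnb2: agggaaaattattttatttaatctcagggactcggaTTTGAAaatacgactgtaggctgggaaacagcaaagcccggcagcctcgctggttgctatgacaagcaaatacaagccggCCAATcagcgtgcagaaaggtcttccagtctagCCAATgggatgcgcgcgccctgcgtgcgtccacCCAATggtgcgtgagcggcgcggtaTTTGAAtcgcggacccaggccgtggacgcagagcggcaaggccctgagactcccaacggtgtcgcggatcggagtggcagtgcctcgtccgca
Mcm5: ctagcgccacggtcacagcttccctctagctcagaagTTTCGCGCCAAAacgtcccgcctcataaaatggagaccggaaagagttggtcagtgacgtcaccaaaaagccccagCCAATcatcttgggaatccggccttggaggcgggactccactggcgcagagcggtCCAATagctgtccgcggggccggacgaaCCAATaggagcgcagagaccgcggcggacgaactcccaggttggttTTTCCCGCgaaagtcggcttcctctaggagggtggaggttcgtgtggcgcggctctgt
Cdk1, Ect2 and Ccnb2 have 2 CHR and 3 CCAAT matches each, and Cdk1 also has 1 E2F word. Nusap1 has 1 CHR, 10 bases into the transcript, and 2 CCAAT boxes. Ube2t has 2 CCAAT boxes and no CHR in this window, and Mcm5 has 3 CCAAT boxes and 3 E2F matches, 2 of them on opposite strands and overlapping.

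Across the listed genes, 26 of 47 promoters (55.3%) held a CHR, against 18.5% of all 21851 protein-coding promoters of the same length. A CCAAT box was in 34 (72.3%, against 38.0%), both motifs in 19 (40.4%, against 7.6%), and an E2F word in 9 (19.1%, against 2.7%). The motifs were unevenly spread over the roles. Of the 10 replication promoters, 7 held an E2F word and 2 a CHR, while 4 of the 5 midzone promoters and 7 of the 9 kinetochore promoters held a CHR and none an E2F word. A match is a string of letters and not a measured binding site.

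The median value per array ran from 5.26 to 5.32 for liver and from 5.33 to 5.38 for kidney, and 0 pairs of arrays were identical. The labelled organs carried their own markers: Alb, the albumin gene of hepatocytes, averaged 14.69 in liver, and the proximal tubule transporter Slc34a1 averaged 13.34 in kidney. Some arrays stand apart. A set of 9 adipose markers was higher than the control mean by 4.66 on kidney array 3 of 300 mg/kg and by 3.71 on kidney array 3 of 500 mg/kg, and the hepatocyte markers were higher by 1.41 on kidney control array 2. A probe set counted as measured in an organ when it was above its array's 40th percentile on at least 4 of the organ's arrays. By this floor 40 of the 50 members passed in liver and 45 in kidney, 23 of them on all 29 liver arrays and 39 on all 29 kidney arrays. Gins1, Bub1b, Ttk, Cenpe and Cenpw failed in both organs, and Plk4, Aurkb, Melk, Bub1 and Hmmr failed in liver.

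In liver, cell cycle transcripts were lower at the high doses, with role medians at 500 mg/kg lowest for midzone and cytokinesis genes and nearest 0 for replication. At 500 mg/kg the spindle protein gene Nusap1 and the ubiquitin-conjugating enzyme gene Ube2t fell, and with rising dose 7 members fell: Nusap1, Cdk1, Mki67, Kif20a, Ect2, Ccna2 and Stmn1. Calls are Benjamini-Hochberg adjusted p under 0.05 over all genes in limma, in fits of 11275 liver and 11204 kidney genes. At 500 mg/kg the 2 called members stand beside 108 called genes in all, 0.958% of those tested. In the dose trend the 7 stand beside 208, or 1.84%. At 0.1, 1, 10 and 100 mg/kg 0 members and 0% of genes were called, and at 300 mg/kg 0 members against 0.0266% of genes. At an unadjusted p under 0.05, 2 of the 50 members were lower at 0.1 mg/kg (2.36% of all genes), 5 at 1 mg/kg (2.72%), 13 at 10 mg/kg (2.83%), 9 at 100 mg/kg (2.29%) and 16 at 300 mg/kg (4.21%). Both calls at 500 mg/kg were lost without control array 4, and each was also lost without some other arrays. With 1 array left out in turn, Nusap1 stayed called in 6 of 9 fits (adjusted p up to 0.095). Ube2t stayed called in 5 of 9 (up to 0.084).

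Over all 50 genes with a probe set, those under the floor included, the mean difference from the control livers was -0.10 at 0.1 mg/kg, -0.10 at 1, -0.22 at 10, -0.20 at 100, -0.26 at 300 and -0.33 at 500 mg/kg. On the 4 arrays of 500 mg/kg it was -0.32, -0.28, -0.36 and -0.36, against -0.07, -0.02, 0.04, 0.31 and -0.25 on the control arrays. The dosed arrays lay close together and all below the controls, while the controls were wide: array 4 was the highest of all liver arrays and array 5 lay below the other controls. At 500 mg/kg 46 of the 50 were below 0, with a median of -0.29, against 48.4% of all 14217 genes below 0 and a median of 0.01. For 28 of them the unadjusted p was under 0.05 on the lower side, where 6.32% of all genes were. Without control array 4 the median over the 50 was -0.04 at 0.1 mg/kg, -0.03 at 1, -0.14 at 10, -0.10 at 100, -0.12 at 300 and -0.20 at 500 mg/kg, against -0.11, -0.12, -0.20, -0.17, -0.18 and -0.29 with it. Every dosed array was below every control array for 7 of the 50, and for 2.48% of all genes. Without control array 5 the 7 became 23, against 3.29% of all genes.

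Markers of other liver cell types were lower in part as well. At 500 mg/kg 9 of 10 measured macrophage markers (of 13 listed) were below 0 (48.4% of all genes), 8 at an unadjusted p under 0.05 (6.32% of all genes), with a list mean of -0.22. The sum of their linear values ran from 4679 to 6712 on the dosed arrays and from 5732 to 6822 on the control arrays. Along dose Csf1r, the receptor of a macrophage growth factor, and Adgre1, the F4/80 antigen, fell in liver by 0.043 and 0.070 per step (adjusted p = 0.0262 and 0.0159). The Kupffer cell marker Clec4f was above the floor on all 29 liver arrays. Of 15 endothelial and stellate markers 12 were below 0 at 500 mg/kg (48.4% of all genes) with a list mean of -0.12, the summed values running from 4964 to 5418 on dosed and from 5032 to 6440 on control arrays. The 9 hepatocyte markers had a mean of -0.02, and Apoa1 of that list fell by 0.30 on the log2 scale (SE 0.07, adjusted p = 0.0245). The part of these markers in the cell cycle differences was not tested.

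**Figure D1:**
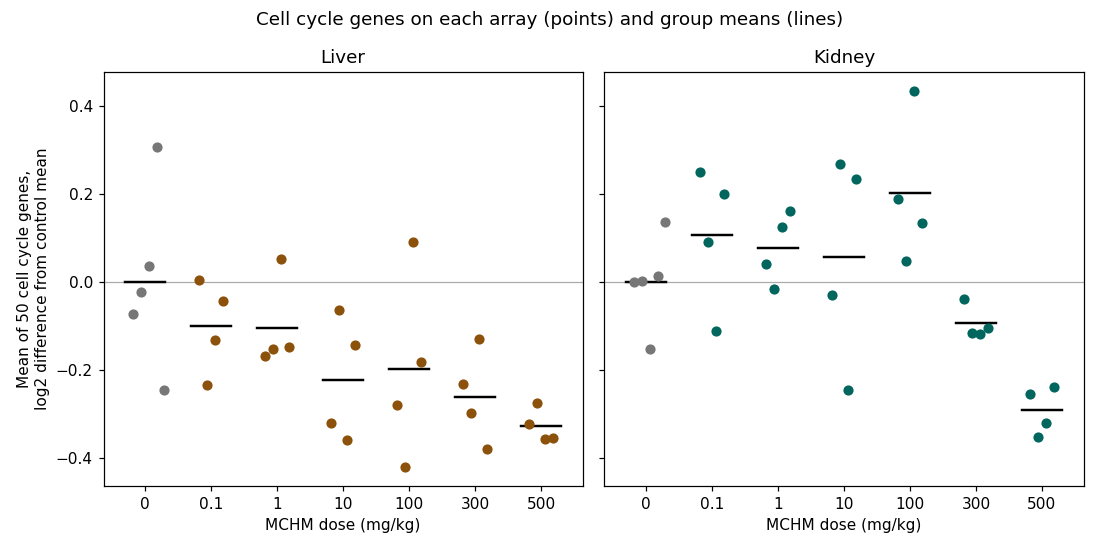
Mean of 50 cell cycle genes on each array, as the log2 difference from the control mean of the same organ (vertical axis), by MCHM dose (horizontal axis, mg/kg), in liver and kidney. Points are arrays and lines are group means; at 500 mg/kg the arrays run from -0.36 to -0.28 in liver and from -0.35 to -0.24 in kidney.

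Cyclins and kinases start each phase of the cycle, and 10 of the 11 with a probe set, with or without passing the floor, were below 0 in liver at 500 mg/kg, with 7 lower at an unadjusted p under 0.05 and a median of -0.41. Cdk1, the kinase that drives entry into mitosis, was at 5.88, 5.11, 5.37 and 4.51 in the livers of rats given 500 mg/kg, against 6.11, 6.24, 6.20, 6.83 and 5.57 in control livers. It differed by -0.97 (SE 0.26, adjusted p = 0.0659) at 500 mg/kg and by -0.65 (SE 0.26, adjusted p = 0.539) at 300 mg/kg. The groups overlapped through the lowest control, array 5, and the dosed values ran over more than 1 log2 unit. Ccnb2, a B-type cyclin that partners Cdk1, was at 5.29, 5.37, 5.22 and 5.41 in the livers of rats given 500 mg/kg, against 5.87, 5.90, 6.18, 6.47 and 5.32 in control livers, a difference of -0.63 (SE 0.23, adjusted p = 0.196). Again only control array 5 fell within the dosed range. Ccna2, the A-type cyclin of S and G2 phase, was at 3.61, 4.23, 3.63 and 3.97 in the livers of rats given 500 mg/kg, against 4.48, 4.47, 4.39, 5.22 and 4.20 in control livers, a difference of -0.69 (SE 0.27, adjusted p = 0.225). One dosed array lay just above the lowest control. Ccnb1, the other B-type cyclin, was at 4.32, 4.12, 4.22 and 4.13 in the livers of rats given 500 mg/kg, against 4.69, 4.85, 4.67, 5.65 and 4.21 in control livers on the probe set brighter in liver, a difference of -0.62 (SE 0.24, adjusted p = 0.227). Its dimmer probe set was at 4.07, 4.18, 3.65 and 3.43 at 500 mg/kg, against 4.45, 4.51, 5.29, 5.23 and 4.67 in control livers. That probe set fell at 500 mg/kg when every probe set was tested on its own, with a log2 change of -0.995 (SE 0.21, adjusted p = 0.0242), and also along dose (adjusted p = 0.0224). Both probe sets were thus lower, and only the dimmer one passed. At the other end, Melk and Foxm1, a transcription factor of mitosis genes, differed by 0.00 and -0.08.

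Most of the spindle checkpoint and ubiquitin genes hold back or release chromosome separation, and the group also holds Ube2t and Cdca3, which have other roles. All 7 were below 0 at 500 mg/kg in liver, 6 at an unadjusted p under 0.05, with a median of -0.38. Ube2t, an E2 enzyme of the Fanconi DNA repair pathway, was at 4.00, 4.24, 4.33 and 4.15 in the livers of rats given 500 mg/kg, against 4.64, 4.71, 4.72, 5.11 and 4.92 in control livers. It fell by 0.64 on the log2 scale (SE 0.14, adjusted p = 0.0232), and the groups did not overlap. Its signal is dim: it passed the floor on 6 liver arrays, 4 of them controls and 0 of them at 500 mg/kg. Without the floor the call stayed (adjusted p = 0.024). Its 4 values were 4.00, 4.18, 4.34 and 4.12 at 10 mg/kg and 4.21, 4.55, 4.84 and 4.63 at 100 mg/kg. At 300 mg/kg they were 4.59, 4.21, 4.41 and 4.16, where it differed by -0.48 (SE 0.14, adjusted p = 0.37). Values at 100 mg/kg reached those of the controls, so the level did not follow the order of the doses. Cdca3, which promotes mitotic entry, was at 6.10, 6.06, 5.93 and 5.55 in the livers of rats given 500 mg/kg, against 6.67, 6.43, 6.51, 6.69 and 5.98 in control livers, a difference of -0.55 (SE 0.20, adjusted p = 0.181). Control array 5 lay inside the dosed range and the other controls above it. Cdc20, the activator of the anaphase-promoting complex, was at 6.48, 6.69, 6.27 and 5.95 in the livers of rats given 500 mg/kg, against 6.49, 6.85, 6.80, 6.93 and 6.57 in control livers, a difference of -0.38 (SE 0.17, adjusted p = 0.297). These groups overlapped through a single dosed array, at 6.69, and at 300 mg/kg Cdc20 differed by 0.01.

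The kinetochore joins chromosomes to the spindle. All 8 of its genes with a probe set, with or without passing the floor, were below 0 at 500 mg/kg in liver, 3 at an unadjusted p under 0.05, with a median of -0.21. Birc5, survivin of the chromosomal passenger complex, was at 5.15, 5.30, 5.52 and 5.40 in the livers of rats given 500 mg/kg, against 5.55, 5.62, 5.76, 5.85 and 5.62 in control livers, a difference of -0.34 (SE 0.11, adjusted p = 0.13). Spc25, of the Ndc80 complex, was at 4.56, 4.83, 4.81 and 4.76 in the livers of rats given 500 mg/kg, against 4.96, 5.03, 5.24, 5.51 and 5.07 in control livers, a difference of -0.42 (SE 0.18, adjusted p = 0.29). In both genes every dosed array was below every control. Nuf2, of the same complex as Spc25, was at 5.49, 5.83, 5.93 and 5.79 in the livers of rats given 500 mg/kg, against 5.69, 5.80, 6.05, 6.76 and 5.93 in control livers, a difference of -0.29 (SE 0.16, adjusted p = 0.447). Its groups overlapped, and control array 4 alone lay well above the rest.

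Spindle and chromosome genes move and compact the chromosomes. All 8, with or without passing the floor, were below 0 at 500 mg/kg in liver, 5 at an unadjusted p under 0.05, with a median of -0.37. Nusap1, which binds spindle microtubules and has its CHR match downstream of the start, was at 5.49, 5.62, 5.99 and 5.84 in the livers of rats given 500 mg/kg, against 6.32, 6.42, 6.29, 6.83 and 6.35 in control livers. It fell by 0.70 on the log2 scale (SE 0.16, adjusted p = 0.0245), and the groups did not overlap. Its second probe set differed by -0.55 at 500 mg/kg and by -0.45 at 300 mg/kg, where the first differed by -0.45. Mki67, which encodes the Ki-67 proliferation antigen, was at 3.90, 3.87, 3.57 and 4.02 in the livers of rats given 500 mg/kg, against 5.10, 4.61, 5.10, 5.40 and 3.93 in control livers, a difference of -0.99 (SE 0.28, adjusted p = 0.0807). It was above the floor on 3 of 5 control arrays and 0 of 4 at 500 mg/kg, and control array 5 lay within the dosed range. Stmn1, stathmin, which destabilises microtubules, was at 7.52, 7.40, 7.70 and 7.46 in the livers of rats given 500 mg/kg, against 7.73, 8.01, 7.94, 8.17 and 7.69 in control livers, a difference of -0.39 (SE 0.12, adjusted p = 0.108). The highest dosed value only just reached the lowest controls. Kif11, the motor that pushes spindle poles apart, differed by -0.31 (SE 0.18, adjusted p = 0.456) on the probe set that passed the floor in liver and by -0.17 (SE 0.15, adjusted p = 0.726) on the other, in the fit without the floor.

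Midzone and cytokinesis genes had the lowest median at 500 mg/kg in liver, -0.54, with 5 of 5 below 0 and 4 at an unadjusted p under 0.05. Kif20a, a motor of the central spindle, was at 5.23, 5.00, 5.03 and 5.05 in the livers of rats given 500 mg/kg, against 5.81, 5.66, 5.79, 5.89 and 4.90 in control livers, a difference of -0.54 (SE 0.19, adjusted p = 0.168). Racgap1, a subunit of centralspindlin, was at 4.06, 4.70, 4.02 and 4.46 in the livers of rats given 500 mg/kg, against 4.99, 5.01, 5.01, 5.49 and 4.46 in control livers, a difference of -0.68 (SE 0.25, adjusted p = 0.187). Ect2, an exchange factor needed for the contractile ring, was at 4.50, 4.59, 4.61 and 4.26 in the livers of rats given 500 mg/kg, against 5.38, 5.49, 5.03, 5.79 and 4.29 in control livers, a difference of -0.71 (SE 0.28, adjusted p = 0.236). In all 3 genes control array 5 lay within the dosed range or below it, and the other controls lay above it. At 300 mg/kg Ect2 differed by -0.82 (SE 0.28, adjusted p = 0.469) and Racgap1, at 4.11, 3.70, 4.81 and 4.18, by -0.79 (SE 0.25, adjusted p = 0.398). The second Racgap1 probe set differed by 0.01 at 300 mg/kg and -0.09 at 500 mg/kg, so the probe sets disagree. For Kif23, the motor of centralspindlin, the brighter probe set in liver differed by -0.05 and the other by -0.40 at 500 mg/kg.

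Replication genes had the median nearest 0 in liver. Of 11 with a probe set, with or without passing the floor, 8 were below 0 at 500 mg/kg and 3 at an unadjusted p under 0.05, and the median was -0.04. Tyms, which makes thymidylate, was at 5.48, 5.20, 5.32 and 5.28 in the livers of rats given 500 mg/kg, against 5.70, 5.85, 5.60, 5.63 and 5.65 in control livers, a difference of -0.36 (SE 0.11, adjusted p = 0.092). Its groups did not overlap at 500 mg/kg. At 300 mg/kg it was at 5.68, 5.22, 5.21 and 5.33, a difference of -0.33 (SE 0.11, adjusted p = 0.426). Fen1, the endonuclease that trims Okazaki fragments, was at 5.94, 5.60, 5.34 and 5.71 in the livers of rats given 500 mg/kg, against 5.98, 6.23, 6.17, 5.99 and 5.75 in control livers, a difference of -0.38 (SE 0.13, adjusted p = 0.143). Mcm5, a subunit of the replicative helicase with E2F words in its promoter, was at 5.87, 5.98, 5.43 and 5.86 in the livers of rats given 500 mg/kg, against 5.88, 5.83, 6.02, 6.19 and 6.20 in control livers, a difference of -0.24 (SE 0.11, adjusted p = 0.326). The groups overlapped in both, and in Mcm5 a single dosed array was the lowest. Pcna, the sliding clamp of DNA polymerase, was at 8.67, 8.57, 8.65 and 8.70 in the livers of rats given 500 mg/kg, against 8.62, 8.68, 8.69, 8.69 and 8.68 in control livers. The interval of its difference ran from -0.16 to 0.11 (95%). Mcm7, another helicase subunit, was at 7.63, 7.72, 7.61 and 7.73 in the livers of rats given 500 mg/kg, against 7.37, 7.68, 7.69, 7.70 and 7.69 in control livers, with an interval from -0.14 to 0.24 (95%).

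**Figure D2:**
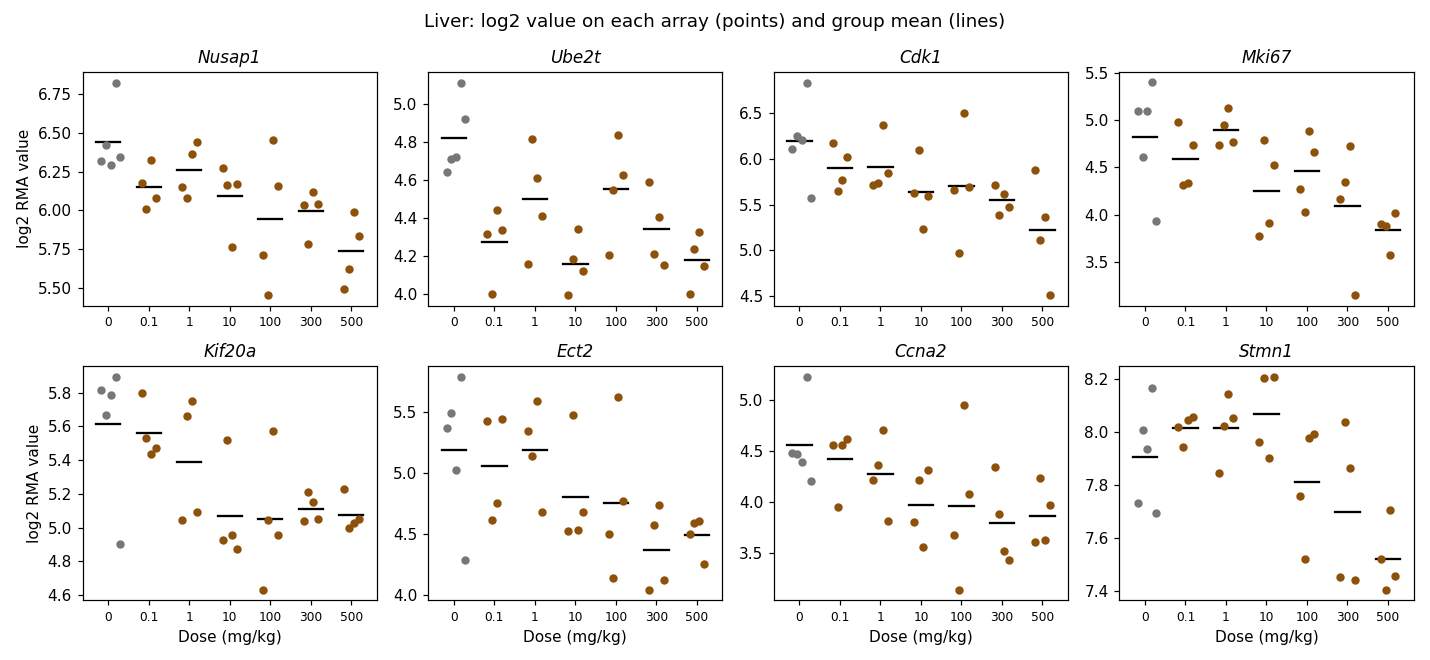
Log2 RMA value (vertical axes) on each liver array (points) with group means (lines), by MCHM dose (horizontal axes, mg/kg), for the 8 genes called in liver at 500 mg/kg or in the dose trend. Nusap1 and Ube2t at 500 mg/kg lie wholly below the controls, and in Kif20a and Ect2 a single control array lies near the dosed ones.

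Along the 7 doses, taken as ranks, 48 of the 50 members had a negative slope in liver, 28 at an unadjusted p under 0.05, against 47.8% and 7.82% of all genes. Nusap1 fell by 0.099 per dose step (SE 0.020, adjusted p = 0.0129). Its mean was 6.44 ± 0.22 in controls (SD, n = 5), then 6.15 ± 0.14 at 0.1 mg/kg, 6.26 ± 0.17 at 1 mg/kg, 6.09 ± 0.23 at 10 mg/kg, 5.94 ± 0.45 at 100 mg/kg, 5.99 ± 0.15 at 300 mg/kg, 5.74 ± 0.22 at 500 mg/kg (SD, n = 4 each). The means were lower at the higher doses without following their order strictly, and the spread was widest at 100 mg/kg. Cdk1 had a slope of -0.14 (SE 0.033, adjusted p = 0.023), Mki67 of -0.16 (SE 0.037, adjusted p = 0.0242) and Kif20a of -0.10 (SE 0.025, adjusted p = 0.0262). Ect2 had -0.14 (SE 0.037, adjusted p = 0.04), Ccna2 -0.13 (SE 0.035, adjusted p = 0.04) and Stmn1 -0.067 (SE 0.018, adjusted p = 0.0444). The signal of Ccna2 is dim: it was above the floor on 4 liver arrays, 1 of them a control and 0 of them at 500 mg/kg. Ect2 was above the floor on 16 liver arrays, 4 of them controls and 0 of them at 500 mg/kg. Stmn1 averaged 7.91 ± 0.20 in controls and 8.02 ± 0.05 at 0.1 mg/kg, 8.02 ± 0.13 at 1 mg/kg, 8.07 ± 0.16 at 10 mg/kg, 7.81 ± 0.22 at 100 mg/kg, 7.70 ± 0.30 at 300 mg/kg, 7.52 ± 0.13 at 500 mg/kg, so its lower values were at 300 and 500 mg/kg. The count of 7 rests on single arrays: it was 1 without the third array of 500 mg/kg and 3 without the fourth control, and of the 7 only Nusap1 passed whichever of the 29 arrays was left out.

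**Figure D3:**
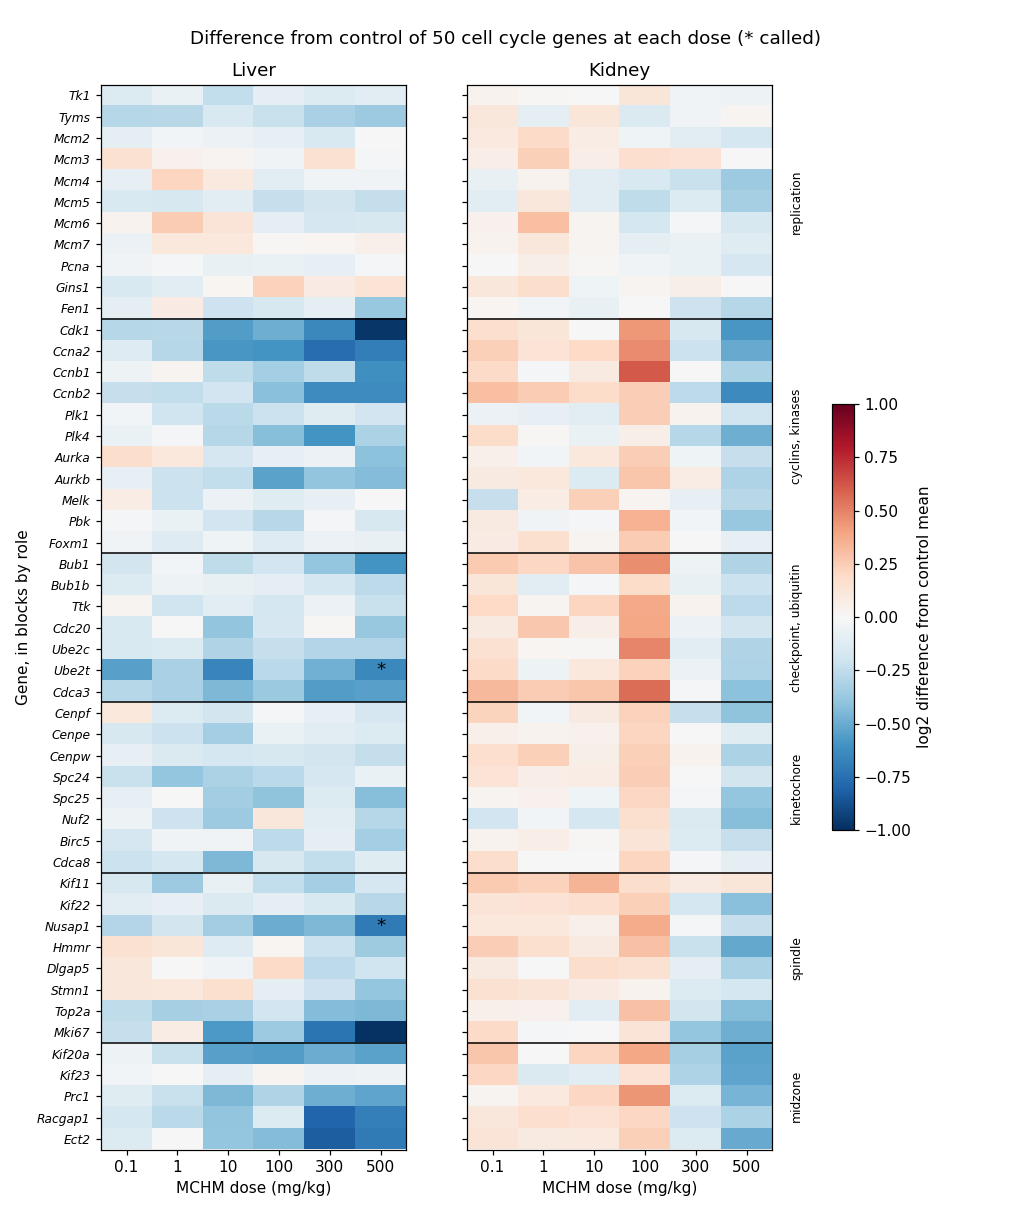
Log2 difference from the control mean (colour) of 50 cell cycle genes (rows, in blocks by role) at 6 doses of MCHM (columns, mg/kg) in liver and kidney. Stars mark Ube2t and Nusap1, the called genes; 46 of 50 liver cells and 47 of 50 kidney cells at 500 mg/kg are blue, and at 100 mg/kg kidney is red outside the replication block.

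In kidney most members were lower at 500 mg/kg and higher at each dose from 0.1 to 100 mg/kg, though 0 members passed the adjusted test at any dose. Called genes made up 0% of all tested at 0.1, 1, 10 and 100 mg/kg, and 0.0268% (3 genes) at 300 mg/kg and again at 500 mg/kg, so few genes of any kind passed in kidney. At an unadjusted p under 0.05, 2 members were higher at 0.1 mg/kg (4.38% of all genes), 4 at 1 mg/kg (5.29%) and 1 at 10 mg/kg (3.98%), and 0 were lower. At 500 mg/kg 47 of the 50 members were below 0, with a median of -0.30, against 47.3% of all genes below 0 and a median of 0.01. For 28 the unadjusted p was under 0.05 on the lower side, against 3.40% of all genes. Every dosed array lay below every control array for 22 of the 50 members, 44.0%, against 1.21% of all genes. The member means were -0.26, -0.35, -0.32 and -0.24 on the 4 arrays of 500 mg/kg, against 0.00, 0.00, -0.15, 0.01 and 0.14 on the control arrays. All 4 dosed arrays were below all 5 controls. Without the array of 500 mg/kg that was high in adipose markers the 22 stayed 22, against 2.03% of all genes, and the median was -0.29. The count was also 22, against 1.78% of all genes, without the control array high in hepatocyte markers.

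For cells other than tubule cells, 6 of 6 measured lymphocyte markers (of 16 listed) in kidney were below 0 at 500 mg/kg (47.3% of all genes), with a mean of -0.22 and sums from 192 to 249 on dosed and from 237 to 277 on control arrays. Of the defining T cell markers there, Cd3d and Cd3g were above the 40th percentile on 0 of 29 kidney arrays, Cd3e on 9 and Cd2 on 24. The kidney markers had a mean of 0.04. Their part in the kidney differences was not tested either.

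Ccnb2, whose promoter holds 2 CHR matches, had the smallest p among the members in kidney at 500 mg/kg. It was at 5.89, 5.63, 5.78 and 5.73 in the kidneys of rats given 500 mg/kg, against 6.58, 6.33, 6.10, 6.31 and 6.67 in control kidneys, a difference of -0.64 (SE 0.15, adjusted p = 0.0831). Ect2 was at 6.43, 6.16, 6.44 and 6.37 in the kidneys of rats given 500 mg/kg, against 7.01, 6.80, 6.57, 6.86 and 7.04 in control kidneys, a difference of -0.51 (SE 0.13, adjusted p = 0.106). The dosed kidneys lay wholly below the controls in both genes. Cdk1 was at 6.77, 6.59, 6.75 and 6.70 in the kidneys of rats given 500 mg/kg, against 7.44, 7.22, 7.04, 7.27 and 7.44 in control kidneys, a difference of -0.58 (SE 0.15, adjusted p = 0.112). Kif20a was at 5.62, 5.37, 5.63 and 5.84 in the kidneys of rats given 500 mg/kg, against 6.33, 6.27, 6.01, 6.14 and 6.0 in control kidneys, a difference of -0.54 (SE 0.14, adjusted p = 0.133). Kif23 was at 5.30, 5.22, 5.33 and 5.61 in the kidneys of rats given 500 mg/kg, against 5.81, 6.02, 5.65, 6.11 and 5.88 in control kidneys, a difference of -0.53 (SE 0.15, adjusted p = 0.178). Again no dosed array reached a control in these 3 genes on the probe sets shown, although the adjusted p of each misses the threshold. The other Kif23 probe set, the brighter one in liver, differed by only -0.115 in kidney, so the Kif23 probe sets disagree on the size of the difference.

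By role, the kidney medians at 500 mg/kg were -0.51 for midzone and cytokinesis (5 of 5 below 0), -0.37 for the spindle (7 of 8), -0.31 for cyclins and kinases (11 of 11), -0.30 for checkpoint and ubiquitin steps (7 of 7), -0.28 for the kinetochore (8 of 8) and -0.16 for replication (9 of 11). These counts include genes under the floor, and replication genes had the median nearest 0 here too. Mcm4, a helicase subunit, was at 6.94, 7.13, 6.81 and 7.04 in the kidneys of rats given 500 mg/kg, against 7.28, 7.23, 7.34, 7.49 and 7.37 in control kidneys, a difference of -0.36 (SE 0.11, adjusted p = 0.228). Pcna was at 9.49, 9.49, 9.38 and 9.41 in the kidneys of rats given 500 mg/kg, against 9.52, 9.56, 9.64, 9.62 and 9.71 in control kidneys, a difference of -0.17 (SE 0.05, adjusted p = 0.221). Both were lower on all dosed arrays than on any control. Kif11 was at 8.46, 7.95, 8.46 and 8.24 in the kidneys of rats given 500 mg/kg, against 8.52, 8.25, 7.60, 8.17 and 8.23 in control kidneys, a difference of 0.12 (SE 0.13, adjusted p = 0.799), and its groups overlapped. Stmn1 was at 10.88, 10.79, 10.75 and 10.82 in the kidneys of rats given 500 mg/kg, against 11.08, 10.89, 10.83, 11.02 and 11.13 in control kidneys, a difference of -0.18 (SE 0.06, adjusted p = 0.322). The dosed values were among the lowest, and 1 dosed value lay above the lowest control.

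**Figure D4:**
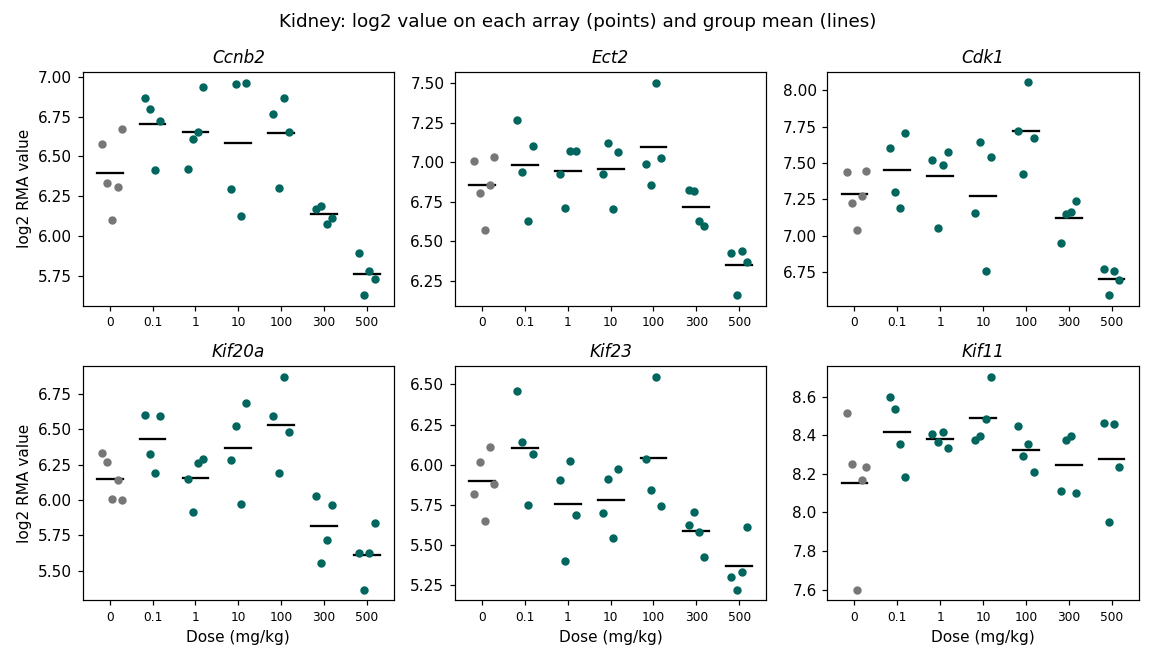
Log2 RMA value (vertical axes) on each kidney array (points) with group means (lines), by MCHM dose (horizontal axes, mg/kg), for 5 genes ranked first by p value among the members, and for Kif11. Each gene is shown on its brightest probe set in kidney. In the first 5 genes the 500 mg/kg arrays lie below all controls, and in Kif11 they overlap them.

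At 100 mg/kg 42 of the 50 members were above 0 in kidney (median 0.22), where 48.0% of all genes were below 0, and 15 were higher at an unadjusted p under 0.05, against 2.59% of all genes. All of the 39 genes outside the replication group were above 0, while 8 of 11 replication genes were below. Every dosed array was above every control for 5 members, against 0.732% of all genes: Ccnb1, Cdca3, Ube2c, Cdc20 and Cenpe, named after their values were seen. Ccnb1 was at 6.19, 6.10, 6.41 and 6.36 in kidneys at 100 mg/kg, against 5.77, 5.74, 5.49, 5.50 and 5.78 in control kidneys, a difference of 0.61 (SE 0.13, adjusted p = 0.628). Cdca3 was at 7.41, 7.17, 7.55 and 7.47, against 6.77, 6.80, 6.73, 6.78 and 7.12 in control kidneys, a difference of 0.56 (SE 0.14, adjusted p = 0.977). The member means of the 4 arrays were 0.19, 0.05, 0.44 and 0.14, the third being the highest of all kidney arrays. Most members were above 0 at the lower doses too: 44 of 50 at 0.1 mg/kg (median 0.11), 37 at 1 (0.06) and 36 at 10 mg/kg (0.05). Of all genes 47.3%, 47.9% and 45.9% were below 0 at these doses. The member means of single arrays there scattered to both sides, from -0.25 to 0.27 at 10 mg/kg.

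At 300 mg/kg 40 of 50 members were below 0 in kidney, against 51.4% of all genes, 2 at an unadjusted p under 0.05 on the lower side (2.83%), with a median of -0.07 and member means of -0.04, -0.12, -0.12 and -0.11. Kif20a was at 6.03, 5.55, 5.71 and 5.96 at 300 mg/kg, a difference of -0.34 (SE 0.14, adjusted p = 0.831). Stmn1 was at 10.80, 10.98, 10.83 and 10.81, a difference of -0.14 (SE 0.06, adjusted p = 0.839). Kif23 was at 5.62, 5.70, 5.58 and 5.43, a difference of -0.31 (SE 0.15, adjusted p = 0.841), against -0.033 on its other probe set. In each the 300 mg/kg group overlapped the controls. In the trend over dose ranks 48 of 50 members had a negative slope in kidney (49.7% of all genes), 19 at an unadjusted p under 0.05 (3.83%), and 0 were called, against 0.152% of all genes. The smallest p were those of Stmn1 at -0.040 (SE 0.011, adjusted p = 0.129), Mcm4 at -0.055 (SE 0.015, adjusted p = 0.131) and Ccnb2 at -0.10 (SE 0.028, adjusted p = 0.141). When dose entered the trend in mg/kg and not as a rank, 14 members fell in kidney, against 1.65% of all genes (185), led by Ccnb2 (adjusted p = 3.39e-04), Stmn1 (adjusted p = 0.00287), Kif20a (adjusted p = 0.00404) and Ect2 (adjusted p = 0.00461). The trend in mg/kg called 7 members in liver, against 7.21% of all genes, and Ccna2 and Kif20a were not among them.

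At 500 mg/kg no member passed the test of a difference in effect between liver and kidney. The liver minus kidney difference of effects had a median of -0.02 over the 50 members, 26 were below 0 (51.0% of all genes), 2 were lower at an unadjusted p under 0.05 (4.40% of all genes), and 0 were called, against 0.122% of 10673 genes. Ccnb1 had the smallest p at -0.68 (SE 0.25, adjusted p = 0.363), on the probe set brighter over both organs, followed by Nusap1 at -0.48 (SE 0.19, adjusted p = 0.424) and Tyms at -0.39 (SE 0.20, adjusted p = 0.592). The other Ccnb1 probe set, the brighter one in liver, differed by -0.055 (SE 0.31, adjusted p = 0.984) when every probe set was tested on its own. The Ccnb1 probe sets thus disagree on a difference between organs. Nusap1 was at 6.39, 6.36, 6.36 and 6.43 in the kidneys of rats given 500 mg/kg, against 6.65, 6.67, 6.42, 6.57 and 6.75 in control kidneys, with a single dosed value reaching the lowest control. Tyms was at 5.89, 5.97, 6.03 and 6.11 in the kidneys of rats given 500 mg/kg, against 6.26, 5.84, 5.88, 5.57 and 6.31 in control kidneys, with overlapping groups. Ccnb1 was at 5.33, 5.29, 5.28 and 5.47 in the kidneys of rats given 500 mg/kg, against 5.77, 5.74, 5.49, 5.50 and 5.78 in control kidneys on its brighter probe set there, with no overlap. The interval for Cdk1 ran from -1.01 to 0.23, wide enough to hold a sizeable difference either way. At 300 mg/kg the median was -0.14, 6 members were lower at an unadjusted p under 0.05 (2.97% of all genes), and 0 members and 0% of genes were called. At 100 mg/kg, a contrast added after the values were seen, the median was -0.38, 43 of 50 were below 0 (53.3% of all genes) and 22 had an unadjusted p under 0.05 on the lower side, against 2.14% of all genes, but again 0 members and 0% of genes were called. Nusap1 differed there by -0.87 (SE 0.19, adjusted p = 0.326).

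**Figure D5:**
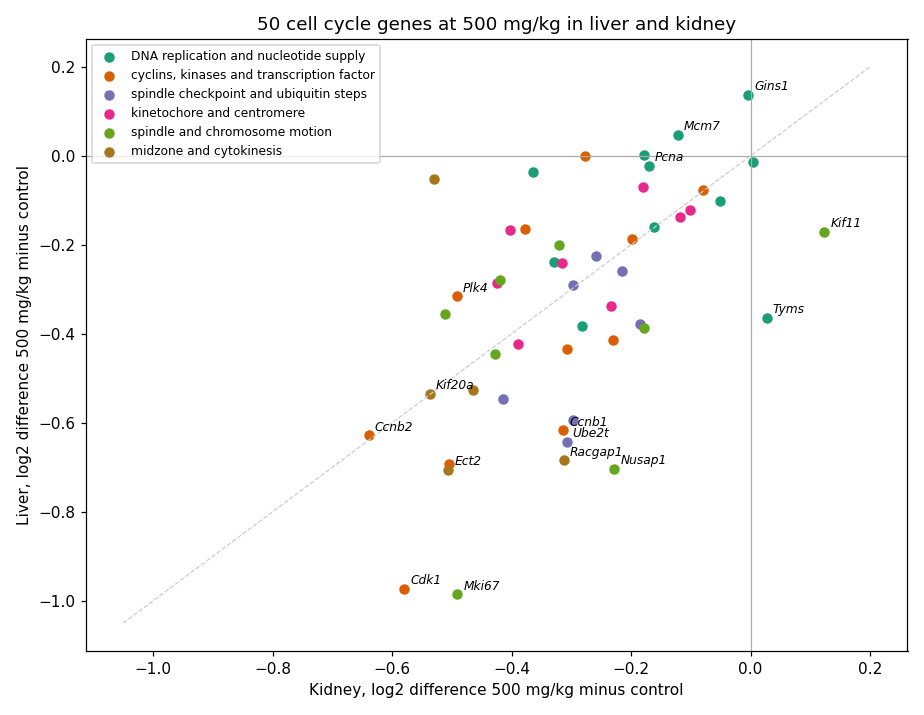
Log2 difference at 500 mg/kg from control in liver (vertical axis) and kidney (horizontal axis) for 50 cell cycle genes, coloured by role; the dashed line marks equal differences. Each organ is read by its own brightest probe set. Ccnb1, Kif23 and Kif11 are therefore on unlike probe sets in liver and kidney, and their distance from the line partly reflects this. On the liver probe set the kidney difference is -0.562 for Ccnb1, -0.115 for Kif23 and 0.003 for Kif11. Most points lie below 0 on both axes, Cdk1 and Mki67 are lowest in liver, and most of the replication genes lie near 0 in liver.

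The resting levels of the members also differed between the organs, with the reservation that the labels do not say if both organs went through RMA as 1 set. Of 38 members read by the same probe set in both, 31 were higher in kidney controls than in liver controls, as were 52.3% of all 10344 genes read in this way. Stmn1 averaged 10.99 ± 0.13 in control kidneys and 7.91 ± 0.20 in control livers (SD, n = 5 each). Melk, a kinase of dividing and progenitor cells, averaged 7.16 ± 0.36 in control kidneys and 3.73 ± 0.23 in control livers, where it was under the floor. Kif11 averaged 8.15 ± 0.34 in control kidneys and 4.23 ± 0.36 in control livers on the same probe set. Its control means differed by 3.93 on that probe set and by 1.74 on its other one. These 3 stood far apart between organs; the probe sets of Tk1, thymidine kinase, and Spc24 were lower in kidney by 0.43 and 0.32.

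Within groups the members varied together from array to array. With group means removed, the mean correlation between pairs of members over the 29 arrays was 0.25 in liver and 0.39 in kidney, against 0.01 and 0.03 over all genes, as a description of arrays that share RNA and hybridisation. It was highest among the 5 midzone genes in kidney, at 0.69, and lowest among the 10 replication genes in liver, at 0.12. Ccnb1, Ect2 and Prc1 followed the mean of the other members most closely in liver (0.83, 0.80 and 0.79), and Ect2, Ccna2 and Bub1 in kidney (0.88, 0.87 and 0.87). Tyms ran against the others in liver (-0.29). Liver control array 4, with 4 of 50 members below the control mean, and array 5, with 43 below, differed in this shared way between untreated rats.

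Other genes of the cycle gave a similar picture by role. Of 58 further mitosis genes 27 were measured in liver, and 22 were below 0 at 500 mg/kg (48.4% of all genes), 10 at an unadjusted p under 0.05 (6.32%), with 0 called (0.958%) and a median of -0.22. In kidney 26 of 28 were below 0 at 500 mg/kg (47.3% of all genes), 12 at an unadjusted p under 0.05 (3.40%), with 0 called (0.0268%) and a median of -0.17. Cdkn3, a phosphatase that acts on cyclin-dependent kinases, differed by -1.09 (SE 0.34, adjusted p = 0.109) in liver and by -1.001 (SE 0.20, adjusted p = 0.062) in kidney, and its liver slope was -0.21 (SE 0.045, adjusted p = 0.0154). The condensin subunit gene Smc4 also fell with dose in liver at -0.06 (SE 0.016, adjusted p = 0.0359), and its partner Smc2 differed by -0.58 (SE 0.15, adjusted p = 0.0693) at 500 mg/kg. In kidney Tacc3, a spindle protein, differed by -0.39 (SE 0.11, adjusted p = 0.174). Of 31 further replication genes measured in liver 17 were below 0 at 500 mg/kg, with a median of -0.02, 0 called and 0 at an unadjusted p under 0.05. Among 25 G1 regulators and inhibitors measured in liver 12 were below 0 and 1 fell: Ccnd1, cyclin D1, by 0.91 on the log2 scale (SE 0.22, adjusted p = 0.041), a call that held in 1 of 9 fits with 1 array left out (adjusted p from 0.0189 to 0.110) and in 5 of 8 other settings (up to 0.130).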

How the data were processed

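Rats were assigned to 7 dose groups per organ from the array titles, and the labels neither say which liver and kidney came from 1 rat nor give a batch. The authors deposited log2 expression values from the Affymetrix Rat Genome 230 2.0 array, normalized by RMA per the submitters' processing notes, which give no version. RMA fits background, quantiles and probe effects over arrays together, which compresses differences of dim probe sets, and the sources used here do not state if the organs were normalized as 1 set. No value was missing, values ran from 1.75 to 14.85, and probe sets were named from GEO's platform annotation.

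The floor kept probe sets that exceeded the 40th percentile of their array on 4 or more arrays of an organ, and the brightest of each gene was tested with limma 3.58.1 in R 4.3.3 (lmFit and eBayes with a trend, Benjamini-Hochberg adjustment, adjusted p under 0.05). A single fit per organ held all 7 groups, with each dose against control and a trend over dose ranks, and a fit of both organs gave the difference of their effects. Counts over 50 members come from the same fits without the floor, and calls from the fits with it. Standard errors are limma's, and intervals are 95%. Each fit was first checked on simulated arrays holding 200 changed genes. Alternatives were other floors, every probe set on its own, quantile normalization within the organ, array weights, only the groups compared, dose in mg/kg, the replicate number as a block, and leaving out each array. The comparison of organs at 100 mg/kg and the fit without both kidney arrays high in adipose markers were added after seeing the data. The number of arrays limits the precision, since arrays have no read depth.

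Members, roles and gene lists were chosen with earlier results of these data known. Values on every array were given for each called member, the 3 of each role with the smallest p at 500 mg/kg in liver, the 5 at 500 mg/kg in kidney, the 3 at 300 mg/kg, in the trend and between organs, and the 3 highest per organ. Of the other lists, called genes and the 3 with the smallest p at 500 mg/kg were named, except for a kidney result that is not reported here. Replicate numbers were not used as pairs in the main fits. In 0 of 12 dose groups were all 4 pairs of deviations from the group means correlated over 0.1 with the control of the same number. That rule cannot exclude weaker or partial pairing. At 100 mg/kg in liver all 4 correlations were above 0 (0.038 to 0.209), and a single one reached 0.438 at 1 mg/kg in kidney.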

Additional observations from a re-analysis of the deposited data

Results flagged for a closer look

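In 105 checks of a gene or of the member mean within a group of 4 or 5 arrays, 8 found 1 array far from the others, where chance gives about 1 in 20. The checks share arrays and genes that vary together, so they are not independent. In the liver controls, array 4 was at 6.83 for Nusap1, against 6.42 for the next, and at 5.22 for Ccna2, against 4.48, while array 5 was at 4.90 for Kif20a, against 5.66. Without control array 4 the adjusted p of Nusap1 at 500 mg/kg was 0.068 (limma). At 10 mg/kg in liver, array 2 was at 5.52 for Kif20a, against 4.95 for the next, and at 5.48 for Ect2, against 4.68. At 0.1 mg/kg in liver, array 2 was at 3.95 for Ccna2, against 4.55. The mean difference of the members was 0.05 on liver array 3 of 1 mg/kg, against -0.15 for the next, and -0.04 on kidney array 1 of 300 mg/kg, against -0.11.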

How the results depend on the processing

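Of 71 results, 17 were counts of calls and 54 were log2 values; each was recomputed under 7 to 9 other settings and with 9 to 29 arrays left out in turn, and 0 of the 54 reversed direction there. The 2 liver calls at 500 mg/kg became 1 with a floor at the 60th percentile, 4 with array weights and 0 to 3 with 1 array left out, 0 being without control array 4. The 7 liver trend calls became 3 with the 60th percentile and 1 to 10 with 1 array left out. In kidney the 0 calls became 1 with array weights, both at 500 mg/kg and in the trend, 14 in the trend with dose in mg/kg, and 0 to 2 in the trend with 1 array left out. The 0 calls for liver minus kidney at 100 mg/kg became 0 to 1. The median of the members that passed the floor was -0.322 in liver at 500 mg/kg, -0.288 both without the floor and with the 60th percentile, and -0.377 to -0.241 with 1 array left out. In kidney it was -0.093 at 300 mg/kg, -0.073 without the floor, -0.125 with array weights and -0.129 to -0.062 with 1 array left out, and at 500 mg/kg -0.308, with -0.355 to -0.282. The cause of these shifts was not tested.

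With the replicate number as a block, 1 member was called in liver at 500 mg/kg, Nusap1, and Ube2t was not (adjusted p = 0.0561). The medians under the block were -0.375 in liver at 500 mg/kg and -0.062 in kidney at 300 mg/kg. Within an organ, the correlation of same-numbered arrays with the controls ran from -0.395 to 0.438 over the 12 dose groups. Same-numbered livers and kidneys were not compared in this check. Trend calls of Ect2, Ccna2 and Stmn1 held in 18, 17 and 12 of 29 fits that leave out 1 array, and those of Cdk1, Kif20a and Mki67 in 27 each.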

Other observations

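The 3 probe sets that name a listed gene together with another one were kept out of every count. The probe set shared by Anln, which encodes the cytokinesis scaffold anillin, and Anlnl1 averaged 4.63 ± 0.27 in liver at 500 mg/kg (SD, n = 4) and 5.00 ± 0.23 in control livers (SD, n = 5). In kidney it averaged 5.36 ± 0.08 at 500 mg/kg and 5.78 ± 0.29 in controls. A probe set shared by Rrm2, the small subunit of ribonucleotide reductase, and Rrm2l1 averaged 6.18 ± 0.27 in liver at 500 mg/kg and 7.01 ± 0.70 in control livers. In kidney it averaged 7.60 ± 0.24 at 500 mg/kg and 7.85 ± 0.29 in controls. No p was computed for them, and which of the paired genes each probe set reads cannot be told apart.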
